A study of Saccharomyces cerevisiae with 6 samples.

Results

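The hexose transporters examined here are 10 genes of budding yeast: HXT1, HXT2, HXT3, HXT4, HXT5, HXT6, HXT7, HXT8, HXT10 and the galactose permease gene GAL2. They were taken as a list of names, and their probe sets were found through gene symbol, locus tag or synonym in the annotation of the array. Of the 10 genes, 9 had a probe set, 1 each, among the 5449 genes tested. No probe set carried the name HXT6. The probe set named HXT7 is of the _s_at type, which is shared between near-identical transcripts, and is treated as shared and uncertain. It was the only shared set of the 9.

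Messenger RNA was measured on 6 single-colour arrays, 3 of a pun1 deletion strain and 3 of its wild type. The deletion strain was built in the filamentous Σ1278b background as a homozygous diploid without PUN1, the gene of a plasma membrane protein, per the study's design text, and the wild type is a diploid of that background. All 6 cultures were grown in YPD, a rich medium, at 30 °C to an OD600 of 0.6, washed, and held for 6 h in SLAD, a low-nitrogen medium that still held 2% glucose. Amino acids were added for the auxotrophies of the strains, which are not named. The labels describe the 3 samples of each group as biological replicates, and how many independent deletion clones they represent is not stated. In bulk RNA, fewer cells of a type and less RNA per cell cannot be told apart.

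Hexose uptake in this yeast runs by facilitated diffusion through a family of plasma membrane carriers that differ in their affinity for glucose. HXT1 and HXT3 encode low-affinity carriers used when glucose is plentiful, and HXT6 and HXT7 encode high-affinity carriers that are repressed by plentiful glucose. HXT2, HXT4 and HXT5 are treated here as carriers of moderate affinity; HXT2 and HXT4 are also often counted with the high-affinity group. GAL2 encodes a high-affinity carrier of galactose and glucose that is induced by galactose, while HXT8 and HXT10 are little characterised. At the promoters of HXT genes the repressor Rgt1 acts with Mth1 and Std1, which are removed when the membrane sensors Snf3 and Rgt2 detect glucose, and the repressors Mig1 and Mig2 act on several family members when glucose is high.

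The target of the deletion was read first. PUN1 stood at 8.33, 4.83 and 4.93 (log2) on deletion replicates 1, 2 and 3, against 13.35, 13.50 and 13.55 on wild type replicates 1, 2 and 3. Deletion replicate 1 was the only deletion array above background for PUN1. Differences without this array are also given for HXT1, HXT2, HXT4, HXT5, the set named HXT7 and STL1. Background here is the 95th percentile of the probe sets of another yeast, Schizosaccharomyces pombe, on the same array, and lay between 5.67 and 5.74 (log2). The deletion arrays also differed in mating-type genes: of 18 mating-type markers, 12 stood higher, 1 stood lower and 5 missed the threshold, and the log2 of their summed linear level was 16.19 to 16.27 on deletion arrays, against 12.07 to 12.12 on wild-type arrays. MF(ALPHA)1, the gene of alpha-factor, was 7.93 higher, FUS3, the mating kinase gene, was 6.33 higher, and HMRA1, the gene of the a1 repressor subunit, was at least 10.7-fold lower and not above background on any deletion array (limma, adjusted p = 7.8e-10, 7.8e-10 and 6.75e-06). In a diploid of a and alpha mating types the a1 and alpha2 proteins together repress haploid-specific genes such as FUS3. The deletion arrays, with alpha-factor and haploid-specific transcripts high and HMRA1 not above background, go against a description of that strain as such a diploid, while its ploidy was not measured. The strain is called the deletion by its label throughout. A loss of PUN1 and this mating-type difference separate the same arrays, so for every result below they cannot be told apart.

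Setting deletion against wild type shows which carriers stand at another transcript level in the deletion arrays under low nitrogen. HXT4, the probe set named HXT7 and HXT5 were higher in the deletion arrays. The low-affinity carriers HXT1 and HXT3 did not pass the test, and neither did HXT2, GAL2, HXT8 and HXT10. Of the 9 probe sets, 3 were thus called higher and 0 lower by limma with Benjamini-Hochberg adjustment over all 5498 tested probe sets, of which 25.6% were called, 15.8% higher and 9.82% lower. At an unadjusted p under 0.05 limma put 1 member lower, HXT2. The share of all tested probe sets at that looser threshold was not counted, so this is not read as a result about the members. The groups did not overlap for 3 of the 9 probe sets, a share below the 44.8% of all tested probe sets whose groups did not overlap. The median difference over the 9 was -0.00 (log2), against 0.02 over all tested probe sets, and the median absolute difference was 0.23, against 0.11.

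**Figure D1:**
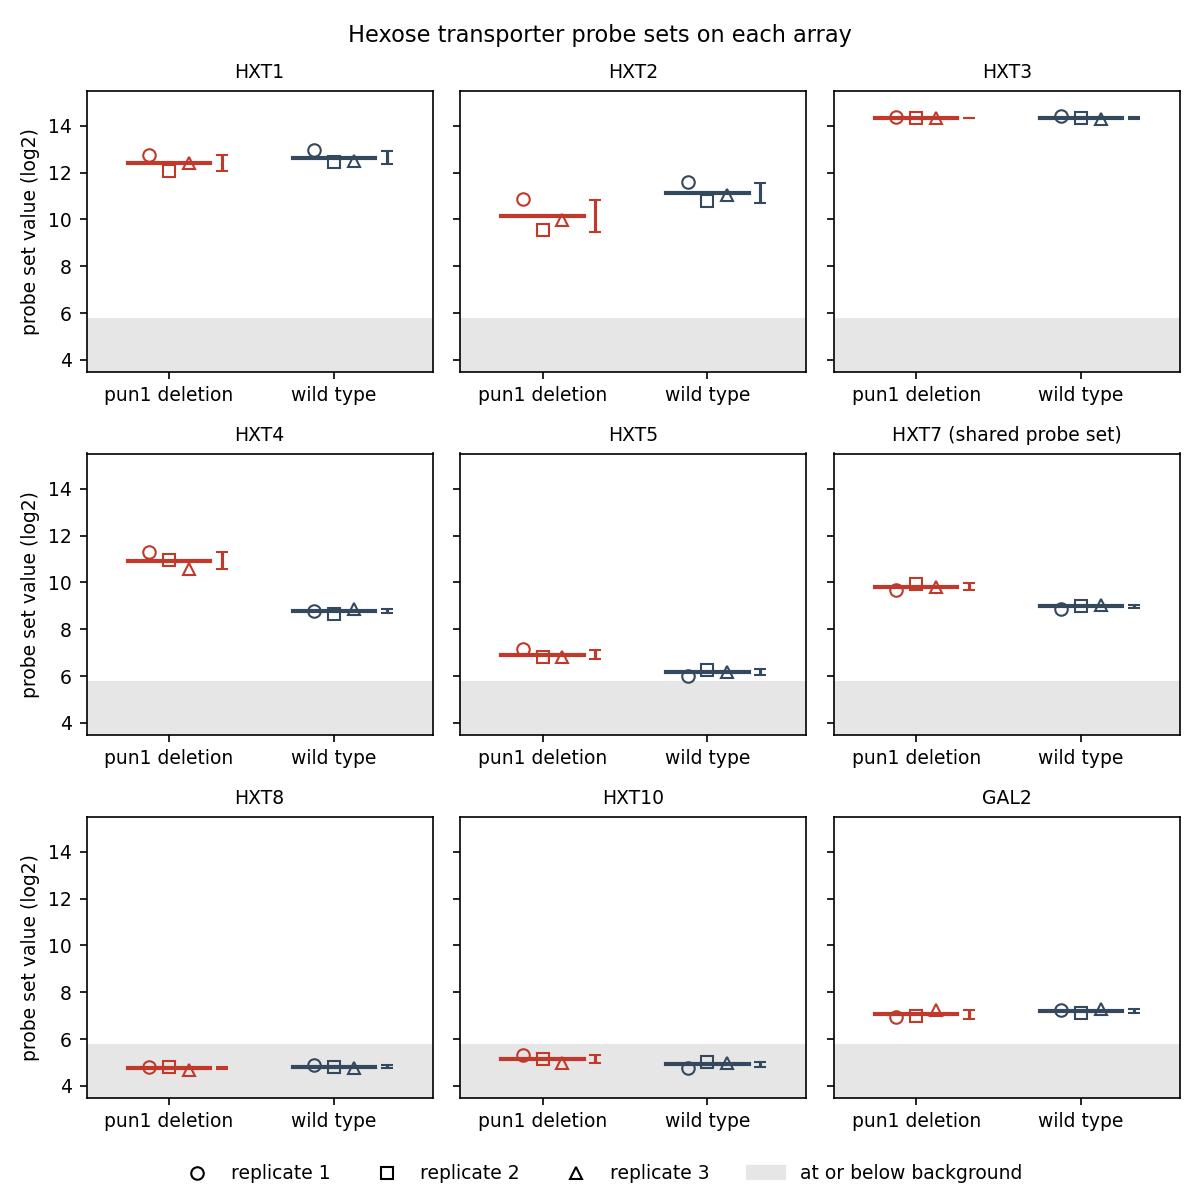
The log2 value of each of the 9 probe sets is plotted per array, with pun1 deletion left of wild type, a bar at the group mean and an error bar of 1 SD (n = 3); symbols mark the replicate number and the grey band lies at or below background. HXT4, HXT5 and the shared set named HXT7 stand higher on all 3 deletion arrays than on any wild-type array, and HXT8 and HXT10 lie within the background band on all 6.

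The low-affinity carriers come first. HXT1, a low-affinity carrier gene induced by high glucose, read 12.73, 12.07 and 12.42 (log2) on deletion replicates 1, 2 and 3, against 12.96, 12.47 and 12.50 on wild type replicates 1, 2 and 3. The groups overlapped, and in each group replicate 1 was the highest and replicate 2 the lowest. The mean was 12.41 ± 0.33 in deletion and 12.64 ± 0.27 in wild type (SD, n = 3 each), a difference of -0.23 (SE 0.19, 95% confidence interval -0.70 to 0.23, limma adjusted p = 0.417). HXT3, which encodes the other low-affinity carrier, read 14.35, 14.33 and 14.34 on deletion replicates, against 14.39, 14.33 and 14.30 on wild-type replicates. The groups overlapped and the 6 values of HXT3 lay close together, with a difference of -0.00 (SE 0.04, interval -0.10 to 0.09, adjusted p = 0.969). Leaving out 1 array at a time moved HXT1 between -0.40, without deletion replicate 1, and -0.064, without deletion replicate 2. Of the 2 low-affinity genes, 0 were called, beside 25.6% of all tested probe sets, and their median difference was -0.12. That median was -0.20 without deletion replicate 1, -0.032 without deletion replicate 2 and -0.026 without wild type replicate 1.

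HXT4 had the largest difference of the family. It read 11.28, 10.94 and 10.57 (log2) on deletion replicates 1, 2 and 3, against 8.79, 8.67 and 8.85 on wild type replicates 1, 2 and 3. Every deletion array was above every wild-type array, and the spread was wider among the deletion arrays (SD 0.35) than among the wild-type arrays (SD 0.09). The mean of 10.93 in deletion against 8.77 in wild type gave a difference of 2.16 (SE 0.17, interval 1.77 to 2.56, adjusted p = 0.000273), which is 4.48-fold (interval 3.41 to 5.89). A change of at least 4-fold in either direction was seen for 0.655% of the tested probe sets, and one of at least 2-fold for 2.16%; HXT4 was the only member past either. By absolute difference HXT4 ranked 30 among the 5498 tested probe sets. Without deletion replicate 1 the difference was 1.99 (adjusted p = 0.000345).

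HXT5, whose carrier is known to be made under slow growth and on poor carbon sources, was above background on all 6 arrays. It read 7.15, 6.80 and 6.81 (log2) on deletion replicates 1, 2 and 3, against 6.02, 6.28 and 6.19 on wild type replicates 1, 2 and 3. The groups did not overlap, but the wild-type values lay little above the backgrounds of their arrays, 5.70 to 5.74. The difference was 0.76 (SE 0.11, interval 0.49 to 1.02, adjusted p = 0.00381), or 1.69-fold, and its size rests partly on values near background. Without deletion replicate 1 it was 0.64 (adjusted p = 0.00478).

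HXT2, a carrier gene induced by low glucose and repressed by high glucose, pointed the other way. It read 10.88, 9.57 and 9.99 (log2) on deletion replicates 1, 2 and 3, against 11.58, 10.78 and 11.02 on wild type replicates 1, 2 and 3. Deletion replicate 1 lay above wild type replicate 2, so the groups overlapped, and as for HXT1 replicate 1 was the highest and replicate 2 the lowest in each group. The mean was 10.15 ± 0.67 in deletion and 11.13 ± 0.41 in wild type (SD, n = 3 each), a difference of -0.98 (SE 0.35, interval -1.81 to -0.14) that did not pass (limma adjusted p = 0.0848).

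The main fit, which gave the calls above, has no block for replicate number, and adding a block changed the call of HXT2. The replicate numbers met the rule for pairs given in the methods. That rule does not separate numbers 2 and 3. Deletion replicate 3 correlated with wild type replicate 2 at 0.183, and deletion replicate 2 with wild type replicate 3 at 0.161. Same-numbered arrays reached 0.213 for number 2 and 0.112 for number 3, so the results by pair or block depend on an uncertain pairing. Between arrays of the same number HXT2 differed by -0.70, -1.21 and -1.03 for replicates 1, 2 and 3, lower on the deletion array in 3 of 3 pairs. With replicate number as a block its difference of -0.98 had an SE of 0.10 and was called lower (limma adjusted p = 0.00375). That fit called 1 of the 9 members lower and 3 higher, beside 11.0% of all tested probe sets lower and 28.4% in either direction. HXT1 differed by -0.22, -0.40 and -0.08 in the 3 pairs and did not pass with the block either (adjusted p = 0.0629). The HXT2 value also rested on single arrays: without deletion replicate 1 it was -1.35 and was called lower (adjusted p = 0.0155), and without deletion replicate 2 it was -0.69 (adjusted p = 0.221). The 25S ribosomal RNA control was high on deletion replicates 2 and 3, at 11.28 and 12.53 (log2), and on wild type replicate 1, at 12.81, against 8.85 to 9.07 on the other 3 arrays. Without those 3 arrays, which leaves 1 deletion and 2 wild-type arrays, HXT2 differed by -0.01 (adjusted p = 0.958), HXT1 by 0.25 (adjusted p = 0.0748) and HXT4 by 2.52, the lone deletion array being assumed to vary like the wild type. This subset sets deletion replicate 1 against wild type replicates 2 and 3, so it holds no pair of the same number, and for HXT1 and HXT2 replicate 1 was the highest array of each group.

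**Figure D2:**
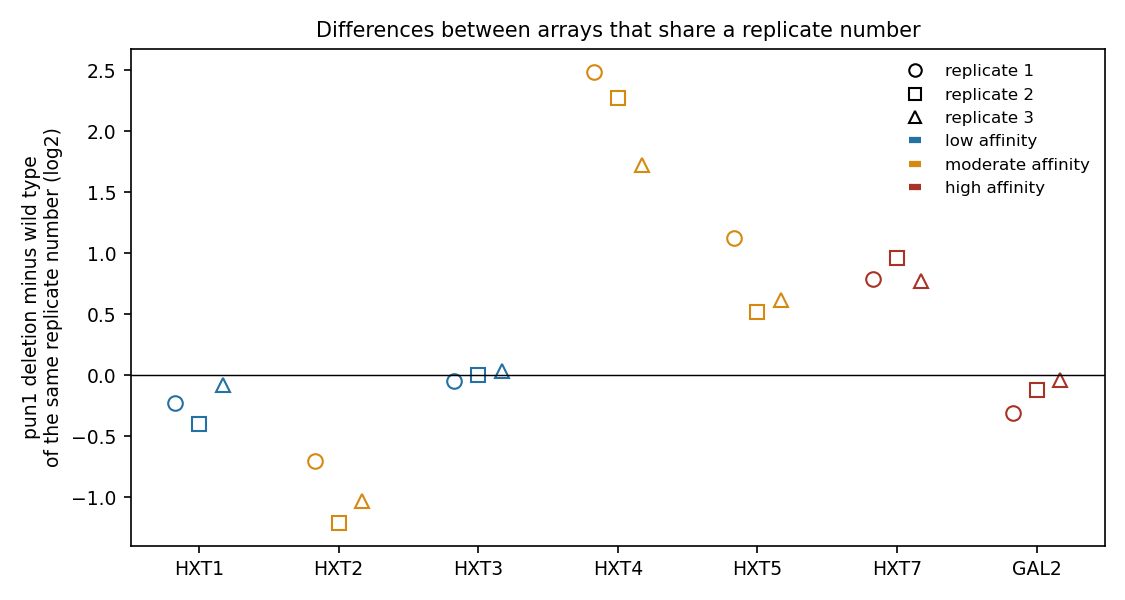
For the 7 members above background, each point is the log2 value of a deletion array minus that of the wild-type array with the same replicate number, with symbols for the replicate number and colours for the affinity class. HXT4, HXT5 and the set named HXT7 lie above 0 in all 3 pairs and HXT2, HXT1 and GAL2 lie below 0 in all 3, while the HXT3 points sit close to 0.

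The high-affinity carriers are represented by the shared set named HXT7 and by GAL2. The set named HXT7 read 9.67, 9.95 and 9.82 (log2) on deletion replicates 1, 2 and 3, against 8.88, 8.99 and 9.04 on wild type replicates 1, 2 and 3. The groups did not overlap, and the 3 matched pairs gave close differences, 0.79, 0.96 and 0.77. The difference was 0.84 (SE 0.08, interval 0.65 to 1.03, adjusted p = 0.000641), or 1.79-fold, and it was 0.91 without deletion replicate 1 (adjusted p = 0.000815). HXT6 and HXT7 are adjacent, near-identical genes on chromosome IV, and the share of this signal that belongs to each cannot be told apart here.

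GAL2 read 6.92, 6.98 and 7.25 (log2) on deletion replicates 1, 2 and 3, against 7.24, 7.10 and 7.29 on wild type replicates 1, 2 and 3. The groups overlapped, though GAL2 was lower on the deletion array in 3 of 3 matched pairs, by -0.31, -0.12 and -0.04, and the difference of -0.16 (SE 0.09, interval -0.38 to 0.07) did not pass (adjusted p = 0.267). A further quantile normalization put GAL2 at -0.45 and called it lower (adjusted p = 0.0276). Of the 2 measured high-affinity genes 1 was called. With HXT2 and HXT4 counted among them, 2 of 4 were called, both higher. Of all tested probe sets, 25.6% were called in either direction and 15.8% higher. The median difference was 0.34 under either definition. It is the midpoint of the set named HXT7 and GAL2 both times, because HXT2 and HXT4 lie on opposite sides of it.

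HXT8 read 4.70 to 4.80 (log2) on deletion arrays, against 4.78 to 4.91 on wild-type arrays, and HXT10 read 5.00 to 5.33 on deletion arrays, against 4.79 to 5.00 on wild-type arrays. Both of these little characterised carriers were below background on all 6 arrays, so no fold change is given. Their transcripts were not detectable above background, which does not show that they were absent.

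Replicate spread differed widely within the family. The pooled SD within groups was 0.56 (log2) for HXT2, above that of 99.8% of the tested probe sets, 0.31 for HXT1 and 0.26 for HXT4, while the median over all tested probe sets was 0.07. HXT3, at 0.03, had a spread above that of only 11.8% of the tested probe sets, and the set named HXT7 stood at 0.11. The genes with the widest spread thus include a low-affinity carrier and 2 of moderate affinity.

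**Figure D3:**
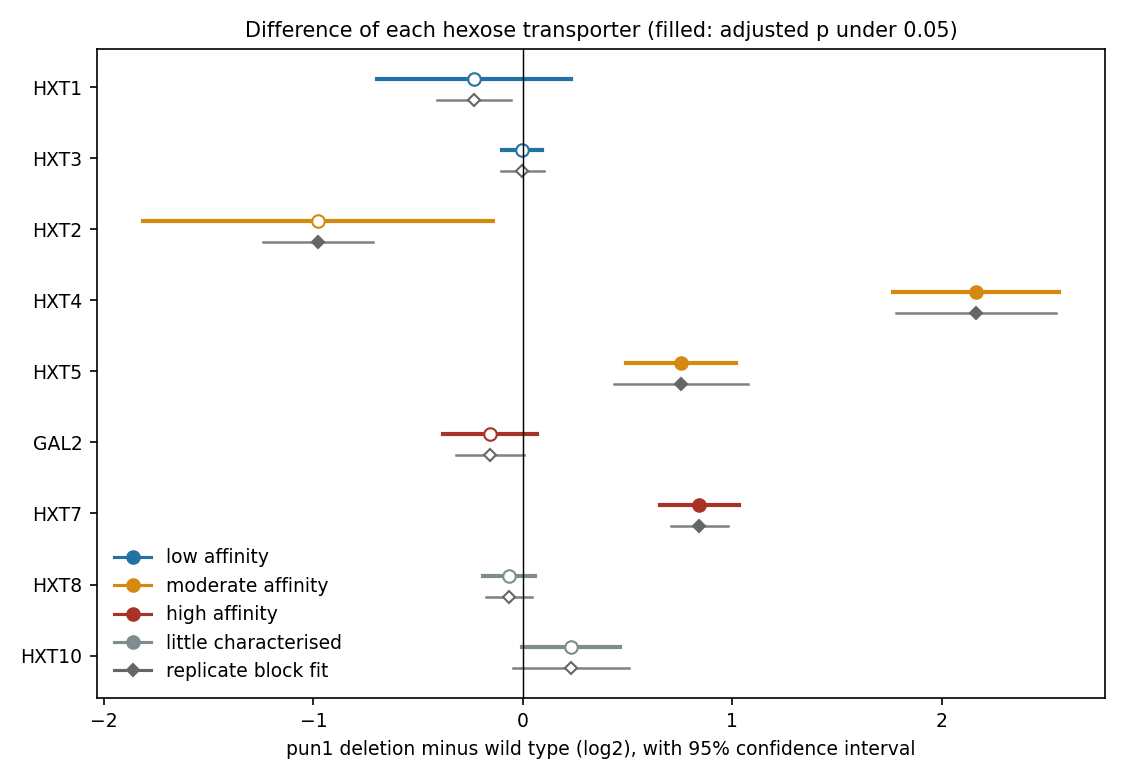
The difference of pun1 deletion minus wild type (log2) is drawn for each member, grouped by affinity class, with its 95% confidence interval from limma; filled circles have an adjusted p under 0.05, and grey diamonds show the fit with replicate number as a block. HXT4 stands at 2.16, the set named HXT7 at 0.84 and HXT5 at 0.76, and the HXT2 interval is narrower and its point filled only in the fit with the block.

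The low- and higher-affinity carriers were then set against each other within each array, by taking the log2 value of a moderate- or high-affinity member minus that of a low-affinity one. This removes any shift shared by an array; the level of one probe set against another has no meaning, so only the change between groups is read. There were 10 such contrasts over the 7 members above background. For HXT4 minus HXT1 the values were -1.45, -1.12 and -1.85 on deletion arrays, against -4.17, -3.80 and -3.65 on wild-type arrays, a difference of 2.40 without overlap. Against HXT3 the HXT4 contrast differed by 2.17. The contrast of the set named HXT7 differed by 1.08 with HXT1 and 0.85 with HXT3, and that of HXT5 by 0.99 and 0.76, in each case without overlap. The HXT2 contrast differed by -0.74 with HXT1, without overlap, and by -0.98 with HXT3, with overlap. The GAL2 contrast differed by 0.08 with HXT1 and -0.15 with HXT3, both with overlap. The 7 contrasts without overlap have an exact permutation p of 0.1 (two-sided, n = 3 per group), the smallest this design allows, and 0.143 after Benjamini-Hochberg adjustment over the 10, so none can pass the threshold. The contrasts of HXT2 and HXT4, both of moderate affinity, had opposite signs.

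The family lies partly in clusters. In the gene table of assembly R64 HXT4, HXT1 and HXT5 follow each other on chromosome VIII with 1 other gene, AHT1, between HXT4 and HXT1. HXT7, HXT6 and HXT3 do so on chromosome IV with YDR344C between HXT6 and HXT3, while HXT10, HXT8, GAL2 and HXT2 lie on chromosomes VI, X, XII and XIII. Within the chromosome VIII cluster HXT4 and HXT5 were higher and HXT1, between them, did not pass. Of 26 genes within the nearest 2 on either side of a member, 20 were measured, of which 4 were higher, 4 lower and 12 did not pass, so that 8 of 20 were called, beside 25.6% of all tested probe sets. OPT1, an oligopeptide transporter gene near HXT8, was 0.52 higher (SE 0.05, adjusted p = 0.000516) and SRL2, beside GAL2, 0.31 higher. MSR1, next to HXT4, was 0.20 higher and IES1, near HXT10, 0.19 higher, while YJL213W, next to HXT8, was at -0.30, ADI1, near HXT2, at -0.26, SIC1, the gene of a cyclin-dependent kinase inhibitor near GAL2, at -0.25 and YDR341C, next to HXT7, at -0.13. Only OPT1 and SRL2 kept their calls whichever array was left out. The largest of these changes was far smaller than that of HXT4.

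Of 18 other genes listed for the sugar transporter family 13 were measured, 8 of them above background on all arrays of a group. MAL11, an alpha-glucoside permease gene, was 0.31 higher (SE 0.06, adjusted p = 0.0114) and MAL31, a maltose permease gene, 0.27 higher (SE 0.06, adjusted p = 0.0205). These 2 of 13 are a share near the 15.8% of all tested probe sets called higher. The other 11 did not pass, and MAL31 kept no call without deletion replicate 2, deletion replicate 3 or wild type replicate 3 (adjusted p = 0.0544 to 0.0687). STL1, a glycerol symporter gene named after its value was seen, had the largest difference of the list, 0.57, and did not pass (adjusted p = 0.0912). It read 7.39, 6.53 and 6.72 on deletion arrays, against 6.21, 6.47 and 6.25 on wild-type arrays, and without deletion replicate 1, the highest, its difference was 0.32. Without the 3 arrays of high 25S rRNA, which keeps only that deletion array, STL1 was called at 1.03 (adjusted p = 0.00172) and MAL11 and MAL31 were not (adjusted p = 0.133 and 0.176).

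Among the genes that sense glucose and signal to the HXT promoters, 1 of 8 was called lower, a share near the 9.82% of all tested probe sets, and 0 higher, and the median difference was -0.07. MTH1, the gene of a co-repressor of Rgt1, read 9.79, 9.60 and 9.20 (log2) on deletion replicates 1, 2 and 3, against 10.06, 10.14 and 10.11 on wild type replicates 1, 2 and 3. The groups did not overlap, and its difference was -0.57 (SE 0.14, adjusted p = 0.0261). The call was lost without deletion replicate 2, wild type replicate 2 or wild type replicate 3 (adjusted p = 0.0647 to 0.0807). The repressor gene RGT1, at 0.09, the sensor genes SNF3 and RGT2, at -0.16 and -0.04, and STD1, at -0.01, did not pass; they were named after their values were seen.

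Of the 17 glucose repression genes, 7 were called lower, 2 higher and 8 in neither direction, with a median of -0.16; over all tested probe sets 9.82% were called lower and 15.8% higher. NRG2, a repressor gene of the glucose repression pathway, read 11.30, 11.11 and 11.12 (log2) on deletion arrays, against 12.25, 12.16 and 12.25 on wild-type arrays, a difference of -1.04 (SE 0.06, adjusted p = 9.03e-05). MIG2, whose product represses glucose-repressed genes together with Mig1, read 10.15, 10.47 and 10.32 on deletion arrays, against 11.07, 11.11 and 11.14 on wild-type arrays, a difference of -0.80 (SE 0.08, adjusted p = 0.000858). Neither gene had overlapping groups. The activator genes ADR1 and CAT8, which drive genes for the use of ethanol and other non-fermentable carbon, were 1.11 and 0.57 higher (adjusted p = 0.000534 and 0.00489). Also called lower were CYC8 at -0.35, NRG1 at -0.31, GAL83 at -0.21, SNF4 at -0.16 and HXK2, given below. MIG1 was at 0.17 and did not pass (limma adjusted p = 0.158), but was called higher with the replicate block (adjusted p = 0.0308). CYC8, NRG1, GAL83, SNF4 and MIG1 were named after their values were seen. The replicate block kept the calls of CYC8, NRG1, GAL83 and SNF4, but whether these calls hold with an array left out was not followed. The list holds both repressor and activator genes, so its counts and median give no direction of repression. Of 4 sugar kinase genes, 1 was lower and 3 did not pass, beside 9.82% of all tested probe sets called lower and 25.6% in either direction. HXK2, the hexokinase gene that also serves in glucose repression and stands on both lists, differed by -0.20 (adjusted p = 0.0344), a call lost when any array but deletion replicate 1 was left out (adjusted p up to 0.118).

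Of 12 glucose-repressed genes outside the family, 8 were called higher, beside 15.8% of all tested probe sets, 0 lower and 4 in neither direction. Their median difference was 0.88, against 0.02 over all tested probe sets. CAT8 and ADR1 belong to this list and to the one before. JEN1, a lactate and pyruvate carrier gene, read 9.41, 9.29 and 9.27 (log2) on deletion arrays, against 7.57, 7.57 and 7.21 on wild-type arrays, a difference of 1.88 (SE 0.10, adjusted p = 5.77e-05). The gluconeogenic phosphatase gene FBP1 was 1.75 higher, the glyoxylate cycle gene MLS1 1.75 higher and the alcohol dehydrogenase gene ADH2 1.54 higher (adjusted p = 0.00091, 0.000103 and 0.00198). SUC2, the invertase gene, named after its value was seen, was at 0.87 and did not pass (adjusted p = 0.0537), but was called with the replicate block (adjusted p = 0.00234) and, at 1.59, without the 3 arrays of high 25S rRNA (adjusted p = 5.4e-05). Its values were highest on replicate 1 in each group, as for HXT1 and HXT2, at 11.15, 10.55 and 10.22 on deletion arrays, against 10.19, 9.56 and 9.57 on wild-type arrays.

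In the galactose system, 3 of 6 measured genes were called higher, beside 15.8% of all tested probe sets, and none lower, with a median of 0.24. GAL10, the epimerase gene, read 7.06, 7.15 and 6.91 (log2) on deletion arrays, against 6.43, 5.73 and 5.97 on wild-type arrays, and was 1.00 higher (SE 0.17, adjusted p = 0.00695), its wild-type values lying near background. GAL1, the galactokinase gene, was 0.76 higher (SE 0.06, adjusted p = 0.000372) and GAL80, the gene of the repressor of the pathway, 0.23 higher (adjusted p = 0.0193). The GAL80 call was lost without deletion replicate 2, deletion replicate 3 or wild type replicate 3 (adjusted p = 0.0542 to 0.0717). The carrier gene of the same system, GAL2, was at -0.16 with an interval of -0.38 to 0.07, so a rise of the size seen for GAL1 lies outside its interval.

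**Figure D4:**
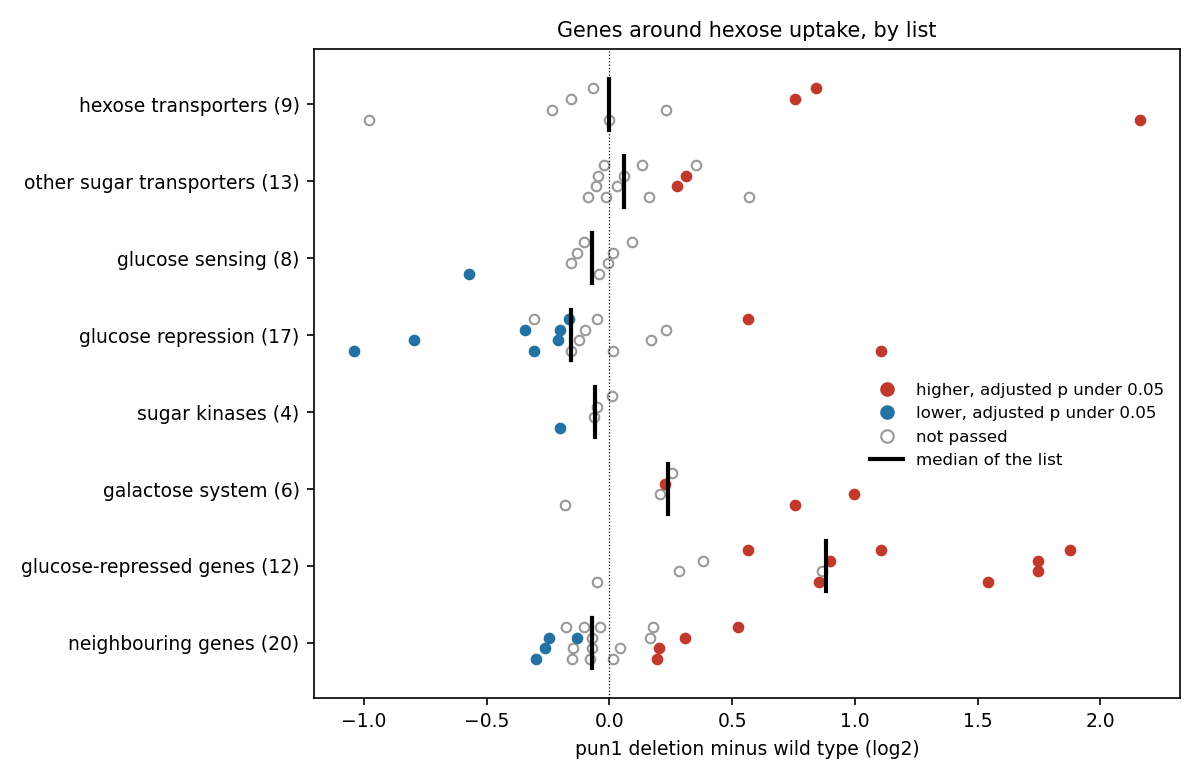
Each point is 1 gene's difference, pun1 deletion minus wild type (log2), by list, with the number of measured genes in brackets; red points were higher and blue points lower at an adjusted p under 0.05, open points did not pass, and the black bar is the median. The hexose transporters spread from -0.98 to 2.16 around a median near 0, while the glucose-repressed genes have a median of 0.88.

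The array profiles nearest to those of the 3 called members were looked up, by the root mean square difference of log2 values centred on each gene's mean over the 6 arrays. Nearest to HXT4 were YHR033W, RDH54, a recombination gene, and RME1, a repressor gene of meiosis, at 0.23, 0.23 and 0.26. They were 2.31, 1.92 and 2.31 higher in the deletion arrays. Nearest to the set named HXT7 were SOR2, AXL2 and TOK1 at 0.06, 0.09 and 0.09, and nearest to HXT5 were YMR317W, MGM1 and DCI1 at 0.09, 0.10 and 0.11. With 6 arrays in 2 groups, this likeness is mostly that of the difference between the groups.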

How the data were processed

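The authors deposited 1 log2 value per probe set and array, with GCOS 1.1, GCRMA and limma listed per the submitters' processing notes, with no order of steps; that the base is 2 was judged from how far the values span. Scanner files and other genome builds were not used here, and 0 columns belonged to no sample. Of 10928 probe sets 7244 had 1 gene symbol, 1 had several and 3683 had none. The 5498 probe sets of 5449 S. cerevisiae genes were tested; 1746 S. pombe sets gave the background. Names, neighbours and chromosomes come from the gene table of assembly R64. Medians of the tested sets were 10.85 to 10.91 on the 6 arrays. Arrays have no read depth, and their number, 3 per group, limits the precision.

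Differences are deletion minus wild type, fitted by lmFit and eBayes of limma 3.58.1, run under R 4.3.3 (no covariates; two-sided p-values adjusted by Benjamini-Hochberg over every tested probe set, threshold 0.05). A gene with several probe sets is represented by the brightest; none of the genes named had sets with different calls. The fitting code was tested on simulated data. The members, lists and affinity classes were chosen with earlier results of these data known, so lists are described by counts and medians only. Genes named are all members, PUN1, 3 mating-type markers, up to 4 called genes with the largest differences per list, called neighbours, and 3 nearest profiles per called member; others are said to be named after their values were seen. Figures were drawn with matplotlib 3.10.9.

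Both groups use numbers 1 to 3, and no common day or batch is stated for a number. To check for pairing, each array was expressed as its deviation from its group mean; the correlation between same-numbered arrays was 0.351 for number 1, 0.213 for number 2 and 0.112 for number 3. All exceed 0.1, the limit taken as pairing. Deletion replicate 3 with wild type replicate 2 reached 0.183, and deletion replicate 2 with wild type replicate 3 reached 0.161. These also exceed 0.1, so the rule does not separate numbers 2 and 3, and for those numbers the evidence is slight. Results come from the unblocked fit unless the block is named.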

Additional observations from a re-analysis of the deposited data

How the results depend on the processing

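HXT4, HXT5 and the set named HXT7 were called higher under all alternatives that kept their probe sets: quantile normalization, median centring, a filter on dim sets, trend and robust settings, 1 set per gene, the replicate block, each array left out, and the 3 arrays of high 25S rRNA left out. The replicate block called 1 member lower, HXT2 at -0.98 (limma adjusted p = 0.00375), and changed no other member's call. Of the list genes named it gained SUC2 and MIG1 (adjusted p = 0.00234 and 0.0308) and lost YDR341C (adjusted p = 0.0667). Genes named after their values were seen, other than SUC2 and STL1, were followed one by one under the replicate block only. Quantile normalization also called 1 member lower, GAL2, and gave medians of 0.52 for moderate affinity, 0.16 for high affinity (2 called; also 0.16 with HXT2 and HXT4 added) and -0.12 for glucose sensing (2 called), with 1 other transporter called. Median centring called 2 sensing genes and gave medians of -0.19 for glucose repression and -0.10 for neighbours. Without shared probe sets no measured high-affinity gene was called (0, or 1 with HXT2 and HXT4), with a median of -0.16 in both cases. These values follow from dropping the set named HXT7. The other transporters then had a median of 0.13. Some of those genes have 2 probe sets, so a gene may have been dropped or read from its other set, which was not followed. Without the 3 arrays of high 25S rRNA 447 of all probe sets were called higher, against 868, and medians were 0.14 for low affinity, 0.19 for high affinity, 0.12 for other transporters (1 called, STL1), 0.0055 for sensing, -0.087 for repression and 1.14 for glucose-repressed genes, with 0 kinases and 3 neighbours called; HXT10 was then called at 0.34, below background, SUC2 and STL1 were gained, and HXK2, GAL80, MAL11, MAL31, ADI1, MSR1, IES1, SRL2 and YDR341C lost their calls. That subset holds no matched pair. Leaving out 1 array at a time gave 507 to 874 probe sets called higher and 284 to 560 lower; the calls fell to 507 higher and 284 lower without deletion replicate 2, to 535 and 325 without deletion replicate 3, and to 313 lower without wild type replicate 2. It gave 0 to 1 members lower, 0 to 2 sensing genes, 0 to 1 kinases, 1 to 2 other transporters, 2 to 5 galactose genes and 2 to 7 neighbours called. Medians then ranged from 0.29 to 0.41 for high affinity with HXT2 and HXT4, 0.012 to 0.11 for other transporters and -0.11 to -0.010 for kinases. Apart from the drop of the set named HXT7, the cause of these shifts was not tested.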
